A study of Arabidopsis thaliana with 12 samples.

Results

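The enzymes described here are those that commit carbon to sucrose in the cytosol of Arabidopsis thaliana leaf cells. The group was defined by locus and holds 7 genes: the sucrose phosphate synthases SPS1F (AT5G20280), SPS2F (AT5G11110), SPS3F (AT1G04920) and SPS4F (AT4G10120), the sucrose phosphatases SPP1 (AT1G51420) and SPP2 (AT2G35840), and the cytosolic fructose bisphosphatase FBP (AT1G43670). A probe was assigned to a gene through the transcript accession printed on the array. All 7 genes had at least 1 usable probe, 9 probes in all, and made up 7 of the 20806 genes tested. The reference table gives the symbol SPP2 to another locus, AT3G52340; here SPP2 means AT2G35840 throughout, and AT3G52340 is called SPP3B.

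Sucrose is the form in which leaves export most of their fixed carbon, and it also accumulates in many plants at low temperature. Triose phosphates leave the chloroplast, are joined to fructose 1,6-bisphosphate, and lose a phosphate to cytosolic fructose bisphosphatase. Sucrose phosphate synthase then joins fructose 6-phosphate to UDP-glucose, and sucrose phosphatase removes the remaining phosphate, which makes the pathway close to irreversible.

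Transcripts were measured in leaves of 2-week-old seedlings of the ecotype Col, either wild type or carrying the transgene 35S::RDM4. The transgene drives RDM4, a factor first known from RNA-directed DNA methylation, from the constitutive 35S promoter, and the labels speak of overexpression lines without saying how many were sampled. Each genotype was sampled at room temperature (0 h) and once it had spent 3 h or 48 h at 4 °C. Each of the 6 groups has 2 arrays, and an RNA preparation pooled the leaves of 30 or more seedlings of a plate. The clock time of harvest is not given and no array stands for plants kept warm for 3 h or 48 h, so time at 4 °C and time of day cannot be told apart. The labels call the 2 arrays of a group biological replicates but do not say how they were kept separate, so the p-values below measure the spread between these samples.

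The 75th percentile of the processed signal lay between 2709 and 5667 on the 12 arrays, and 73.3 to 76.7% of probes were well above background by the scanner's call. Replicate arrays correlated at 0.9956 to 0.997 across genes. RDM4 itself lay at 1.07 to 1.49 times the array's 75th percentile in wild type and at 43.4 to 68.6 times in 35S::RDM4, so the 2 genotypes did not overlap. All 8 leaf mesophyll markers were well above background in every group. Their log2 changes in wild type at 48 h had a median of -0.03 and ran from -1.14 for CA1 to 2.18 for LHCB2.1. The summed level of 9 root markers, all of them also detected in these leaf samples, was 19.5 to 19.7 times the 75th percentile in wild type at 0 h, 21.1 to 21.2 at 3 h and 6.14 to 6.15 at 48 h. In 35S::RDM4 it was 18.3, 21.1 to 22.2 and 7.09 to 7.38. That sum follows TIP2;2 and TIP2;3, which fell by 3.92 and 3.64 on the log2 scale at 48 h in wild type. Gene by gene, 4 of the 9 rose and 4 fell there, with a median of 0.32, and IRT1 changed by 4.41, NRT2.1 by 1.09 and WOX5 by 0.91. Vasculature markers summed to 16.7 to 17.8, 14.6 to 15.3 and 9.97 to 10.4 in wild type, and epidermis and guard cell markers to 9.12 to 9.77, 8.71 to 8.96 and 12.1. Of the 4 epidermis and guard cell markers, 1 rose in wild type at 48 h (PDF1, by 0.58) and 3 fell, with a median of -0.16. The part of these shifts in the results below was not tested. Fewer cells of a type and less RNA per cell cannot be told apart in such bulk samples.

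In wild type, transcripts of the group's 6 synthase and phosphatase genes were higher after 48 h in the cold, and that of FBP was lower. The SPS1F call held in 14 of 25 alternative settings, and the SPS3F call was lost with another background correction. SPP3B, a sucrose phosphatase outside the group, stood at -0.13 on the log2 scale at 48 h. SPS4F rose 6.40-fold within 3 h and was 2.61-fold above its 0 h level at 48 h. SPS2F and SPP2 rose 1.91-fold and 1.74-fold within 3 h and were also above 0 h at 48 h, whereas SPP1 rose only between 3 h and 48 h, by 2.47-fold. FBP was 1.83-fold lower at 48 h than at 0 h. Levels are given below as multiples of each array's 75th percentile, separately for replicate 1 and replicate 2, and a level says nothing about another gene's level because probes differ in brightness. Changes are log2 differences of group means with their standard error (SE), and a gene passed when its p-value from limma, adjusted by Benjamini-Hochberg over all genes of that comparison, was below 0.05.

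**Figure D1:**
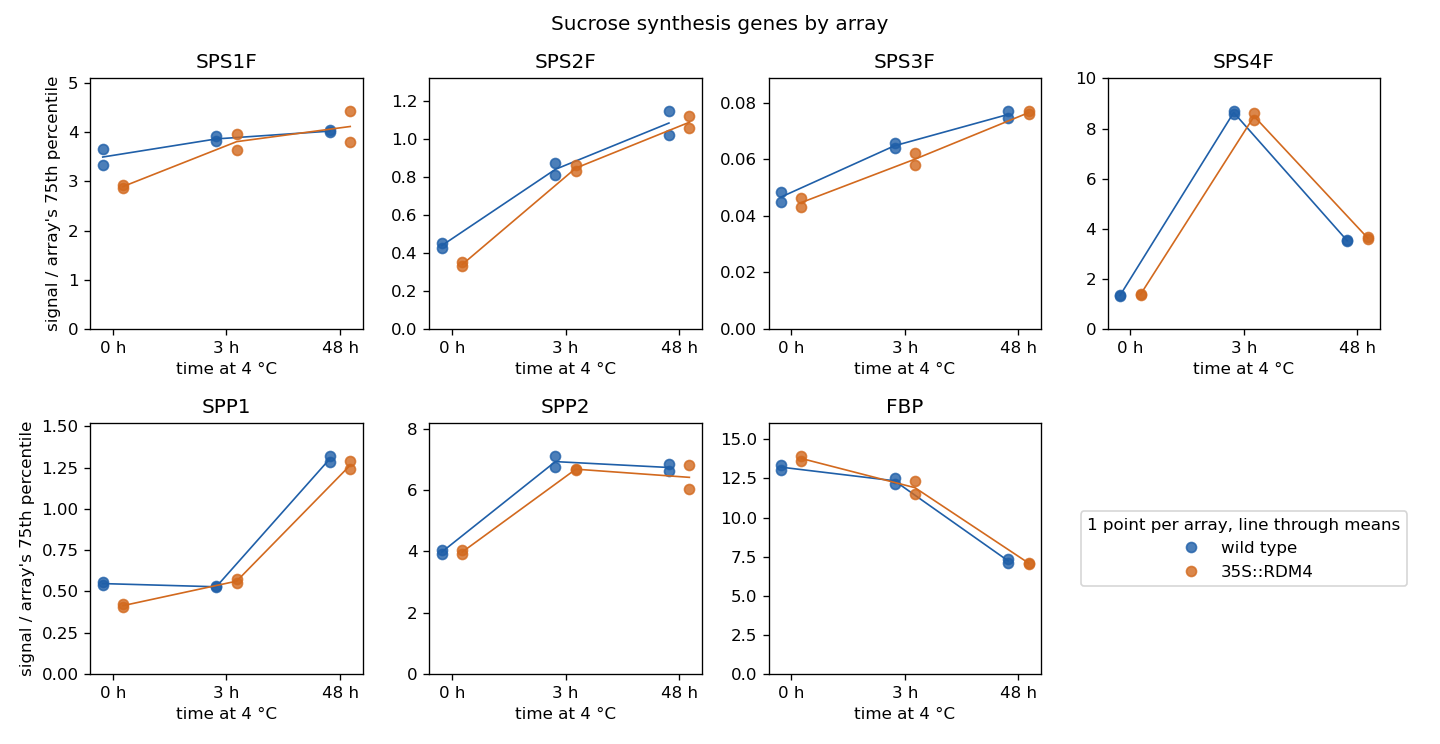
Level of each of the 7 genes on every array, as a multiple of the array's 75th percentile on a linear axis, against time at 4 °C. Each point is 1 array and each line joins the 2-array means of a genotype. SPS4F peaks at 3 h, SPP1 is high at 48 h, FBP is low at 48 h, and the genotypes lie apart at 0 h for SPP1 and SPS2F.

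Sucrose phosphate synthase sets much of the capacity for sucrose synthesis in leaves, and SPS1F and SPS4F are regarded as its main leaf forms in Arabidopsis. For SPS4F the wild-type levels were 1.33 and 1.37 at 0 h, 8.70 and 8.58 at 3 h, and 3.54 and 3.51 at 48 h. In 35S::RDM4 they were 1.36 and 1.41, then 8.63 and 8.35, then 3.61 and 3.66. The 3 times did not overlap in either genotype, and the spread between replicates was far smaller than the steps between times. The wild-type change was 2.68 (SE 0.03) at 3 h, with an adjusted p of 4.89e-10, and 1.38 at 48 h, with an adjusted p of 5.14e-09. From 3 h to 48 h SPS4F fell by 1.29 on the log2 scale (adjusted p 9.36e-09). The same steps in 35S::RDM4 were 2.61, 1.39 and -1.22, each of which passed.

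SPS2F, a relative of SPS1F, rose at 3 h and, by its brighter probe, again by 48 h. Its wild-type levels were 0.454 and 0.423 at 0 h, 0.870 and 0.808 at 3 h, and 1.14 and 1.02 at 48 h. In 35S::RDM4 they were 0.350 and 0.329, then 0.861 and 0.830, then 1.12 and 1.05. The times did not overlap within a genotype. The wild-type change was 0.94 (SE 0.07, adjusted p 5.73e-06) at 3 h and 1.30 (adjusted p 4.11e-07) at 48 h, and the further step from 3 h to 48 h was 0.37 (adjusted p 0.00136). That last step was 0.17 and missed the threshold when the gene's probes were averaged (adjusted p 0.052). In a limma fit over all usable probes, the gene's dimmer probe gave -0.03 for that step (adjusted p 0.821). In 35S::RDM4 the dimmer probe gave 0.42 for the same step (adjusted p 0.00565). In 35S::RDM4, which started lower, the changes were 1.32 and 1.68, or 2.49-fold and 3.20-fold.

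SPS1F was bright and changed little. Its wild-type levels were 3.66 and 3.32 at 0 h, 3.91 and 3.81 at 3 h, and 3.99 and 4.04 at 48 h. In 35S::RDM4 they were 2.92 and 2.87, then 3.64 and 3.96, then 4.42 and 3.80. In wild type the 0 h arrays were the lowest at both comparisons, yet the 3 h change of 0.15 had a 95% interval of -0.03 to 0.32 and did not pass (adjusted p 0.127). The wild-type 48 h change of 0.20 passed narrowly (adjusted p 0.0385). That call was lost in 11 of 25 alternative settings, among them the omission of replicate 2 of wild type at 0 h, without which the change was 0.13 (adjusted p 0.216), and omissions of other arrays given in the closing section. In 35S::RDM4 the changes were 0.39 (adjusted p 0.00195) at 3 h and 0.50 (adjusted p 0.000348) at 48 h, the latter 0.26 and not passing with slide as a fixed block (adjusted p 0.0792).

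SPS3F was dim, with a processed signal of 131 to 430, though well above background on all 12 arrays. Its wild-type levels were 0.0483 and 0.0450 at 0 h, 0.0656 and 0.0639 at 3 h, and 0.0746 and 0.0770 at 48 h. In 35S::RDM4 they were 0.0432 and 0.0462, then 0.0622 and 0.0578, then 0.0759 and 0.0770. The level rose from each time to the next with no overlap in either genotype. The wild-type changes were 0.47 (SE 0.05, adjusted p 7.51e-05) at 3 h and 0.70 (adjusted p 3.86e-06) at 48 h. With another background correction, normexp, they were 0.19 and 0.38 and neither passed (adjusted p 0.376 and 0.0787). The changes in 35S::RDM4 were 0.42 and 0.77.

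The sucrose phosphatases, which carry out the final step, followed different time courses. SPP2 in wild type lay at 3.91 and 4.06 at 0 h, 7.11 and 6.75 at 3 h, and 6.63 and 6.85 at 48 h. In 35S::RDM4 it lay at 3.92 and 4.04, then 6.71 and 6.67, then 6.81 and 6.03. Every cold array was above every 0 h array, and the 3 h and 48 h arrays overlapped. The wild-type changes were 0.80 (SE 0.06, adjusted p 5.16e-06) at 3 h and 0.76 (adjusted p 4.08e-06) at 48 h, while the step between them, -0.04, had a 95% interval of -0.18 to 0.09. In 35S::RDM4 the changes were 0.75 and 0.69.

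For SPP1 the wild-type levels were 0.556 and 0.539 at 0 h, 0.531 and 0.525 at 3 h, and 1.29 and 1.32 at 48 h. In 35S::RDM4 they were 0.407 and 0.422, then 0.553 and 0.573, then 1.29 and 1.24. Only the 48 h arrays stood out in wild type, while in 35S::RDM4 each time was separate from the others. The wild-type 3 h change was -0.05 with a 95% interval of -0.14 to 0.04 and did not pass (adjusted p 0.253). At 48 h it was 1.25 (SE 0.04, adjusted p 1.55e-08). In 35S::RDM4 SPP1 rose 1.36-fold within 3 h, a log2 change of 0.44 with an adjusted p of 1.31e-05, and 3.05-fold by 48 h, a log2 change of 1.61 with an adjusted p of 4.34e-09.

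Cytosolic fructose bisphosphatase, inhibited by fructose 2,6-bisphosphate, supplies the fructose 6-phosphate that the synthases use. FBP in wild type lay at 13.4 and 13.1 at 0 h, 12.5 and 12.2 at 3 h, and 7.12 and 7.35 at 48 h. In 35S::RDM4 it lay at 13.9 and 13.6, then 12.3 and 11.5, then 7.12 and 7.06. The 48 h arrays were far below all others, and the 3 h arrays lay just under the 0 h arrays. FBP fell by 0.87 on the log2 scale at 48 h in wild type (SE 0.04, adjusted p 1.88e-07) and by 0.96 in 35S::RDM4 (adjusted p 1.06e-07). At 3 h the wild-type change of -0.10 missed the threshold (adjusted p 0.0608) and that in 35S::RDM4, -0.21, passed (adjusted p 0.0018). The wild-type change at 3 h passed in 5 alternatives. They were the replicate block (adjusted p 0.049), slide as a random block (adjusted p 0.0447), quantile normalisation (adjusted p 0.0321) and the omission of either 35S::RDM4 array of 3 h (adjusted p 0.0399 in each). In the authors' deposited value table the change in 35S::RDM4 was -0.12 (adjusted p 0.0744).

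**Figure D2:**
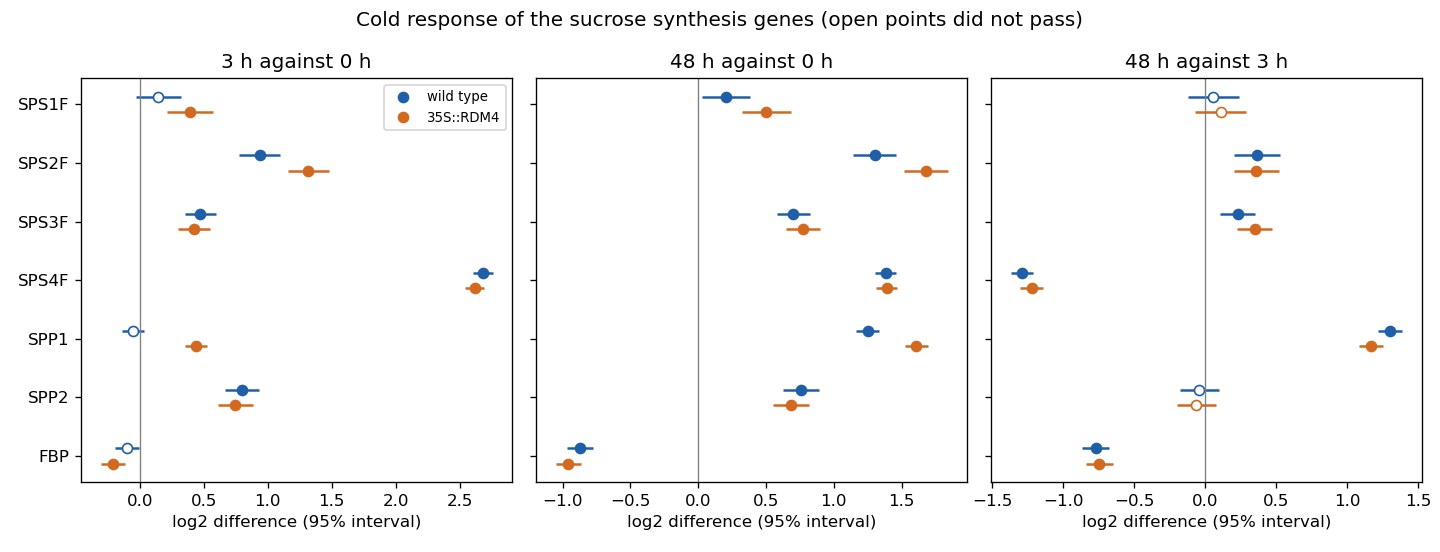
Log2 change of each gene in wild type and in 35S::RDM4, with 95% intervals, for 3 h against 0 h, 48 h against 0 h and 48 h against 3 h. Filled points passed and open points did not. Against 0 h, 4 genes passed in wild type at 3 h and all 7 at 48 h, with FBP the gene below 0 at 48 h.

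Counted together, 4 of the 7 genes rose in wild type at 3 h and 0 fell, against 30.8% of all tested genes higher and 37.2% lower, 68.1% in either direction. At 48 h 6 rose and 1 fell, against 39.7% and 39.1% of all genes, 78.7% in either direction. With so many genes passing, the number that passed is near the background, and the direction is what the counts add. The median change of the 7 genes was 0.47 at 3 h and 0.76 at 48 h, beside medians over all genes of -0.04 and 0.00. From 3 h to 48 h 3 rose and 2 fell in wild type, while 41% of all genes rose and 35.1% fell, 76.1% in either direction. In 35S::RDM4 6 rose and 1 fell at 3 h, against 32.9% and 37% of all genes, 70% in either direction. At 48 h 6 rose and 1 fell again, against 40.8% and 38.7%, 79.5% in either direction. From 3 h to 48 h 3 rose and 2 fell there too, against 40.7% and 35.1%, 75.8% in either direction. Each wild-type response shares its 0 h arrays with the other, as does each 35S::RDM4 response.

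Slide and replicate coincide in wild type, where slide 1 carried replicate 1 and slide 3 carried replicate 2 of all times. The SPS4F change at 3 h was 2.71 within slide 1 and 2.65 within slide 3, and the SPP1 change at 48 h was 1.21 and 1.29. The FBP change at 48 h was -0.91 and -0.83. For SPS1F the 48 h change was 0.12 on slide 1 and 0.28 on slide 3. In 35S::RDM4 the 3 h changes of SPS4F were 2.66 within slide 2 and 2.57 within the second scan day.

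The genotypes differed before the cold for both SPP1 and SPS2F. At 0 h SPP1 was 1.32-fold lower in 35S::RDM4, a difference of -0.40 (95% interval -0.49 to -0.32, adjusted p 0.00064). SPS2F was 1.29-fold lower, a difference of -0.37 (interval -0.53 to -0.21, adjusted p 0.0127). The arrays of the 2 genotypes did not overlap for either gene, nor for SPS1F and FBP. The share of all genes without overlap was not computed, so this separation is description only. The SPS1F difference of -0.27 (interval -0.45 to -0.09) missed the threshold (adjusted p 0.0581) and ranged from -0.34 to 0.11 over the 25 alternatives. Thus 2 of the 7 genes were lower and 0 higher, against 8.23% of all genes lower, 4.72% higher and 13% in either direction.

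At 0 h no slide carried both genotypes, so genotype and slide cannot be told apart there. The SPP1 difference was -0.45 among the arrays of the first scan day and -0.36 among those of the second, and that of SPS2F was -0.38 and -0.36. The SPS2F call was lost without replicate 1 of wild type at 0 h (adjusted p 0.0834) and without replicate 2 of 35S::RDM4 at 0 h (adjusted p 0.0806). With slide as a fixed block, which leaves 2 residual degrees of freedom, the differences were -0.32 for SPP1 and -0.23 for SPS2F and neither passed (adjusted p 0.197 and 0.249). The remaining genes had 0 h differences of -0.06 for SPS3F (interval -0.18 to 0.06), 0.04 for SPS4F (-0.04 to 0.12), 0.00 for SPP2 (-0.13 to 0.13) and 0.06 for FBP (-0.04 to 0.15).

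In the cold none of the 7 genes passed in limma between the genotypes, at 3 h or at 48 h. Of all genes 2.23% were higher in 35S::RDM4 and 2.69% lower at 3 h, 4.93% in either direction, and 2.57% were higher and 1.12% lower at 48 h, 3.69% in either direction. At 3 h 1 gene, SPP1, had an unadjusted p below 0.05. Its difference was 0.09 with an interval of 0.00 to 0.18 (adjusted p 0.177). At 48 h 0 genes had such a p, and the SPP1 difference was -0.04 with an interval of -0.13 to 0.04. The SPS2F difference was 0.01 at both times. The SPS4F differences were -0.03 (interval -0.10 to 0.05) and 0.04. At 48 h slide 3 carried both genotypes, and on it the differences ranged from -0.04 to 0.13.

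The cold response itself differed between the genotypes for SPP1. Its 3 h response was larger in 35S::RDM4 by 0.49 (SE 0.05, 95% interval 0.37 to 0.62, adjusted p 0.00306), and its 48 h response by 0.36 (interval 0.24 to 0.48, adjusted p 0.00779). Among the 7 genes SPP1 was the 1 that passed, in the positive direction both times. Of all genes 4.74% passed in that direction and 2.58% in the other for the 3 h response, 7.32% in all, and 4.56% and 0.908% for the 48 h response, 5.46% in all. These 2 differences and the 0 h genotype difference share the 0 h arrays, so they are not independent readings. With slide as a fixed block they were 0.49 (adjusted p 0.0678) and 0.31 (adjusted p 0.186), and with normexp correction the second was 0.34 (adjusted p 0.0901). SPS2F had differences of 0.38 at both times that missed the threshold (adjusted p 0.056 and 0.0732). They passed in 5 and 4 of the 25 alternatives, including those with scan day as a block (adjusted p 0.0158 and 0.0102). Over all alternatives the SPS2F differences ranged from -0.008 to 0.44 at 3 h and from 0.21 to 0.46 at 48 h. For SPS4F the differences were -0.06 (interval -0.17 to 0.05) and 0.01 (-0.10 to 0.12). For the step from 3 h to 48 h, where 1.08% of all genes passed above 0 and 0.298% below 0 in limma, 1.37% in all, 0 of the 7 passed and 1, SPP1, had an unadjusted p below 0.05 (difference -0.13, adjusted p 0.301).

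**Figure D3:**
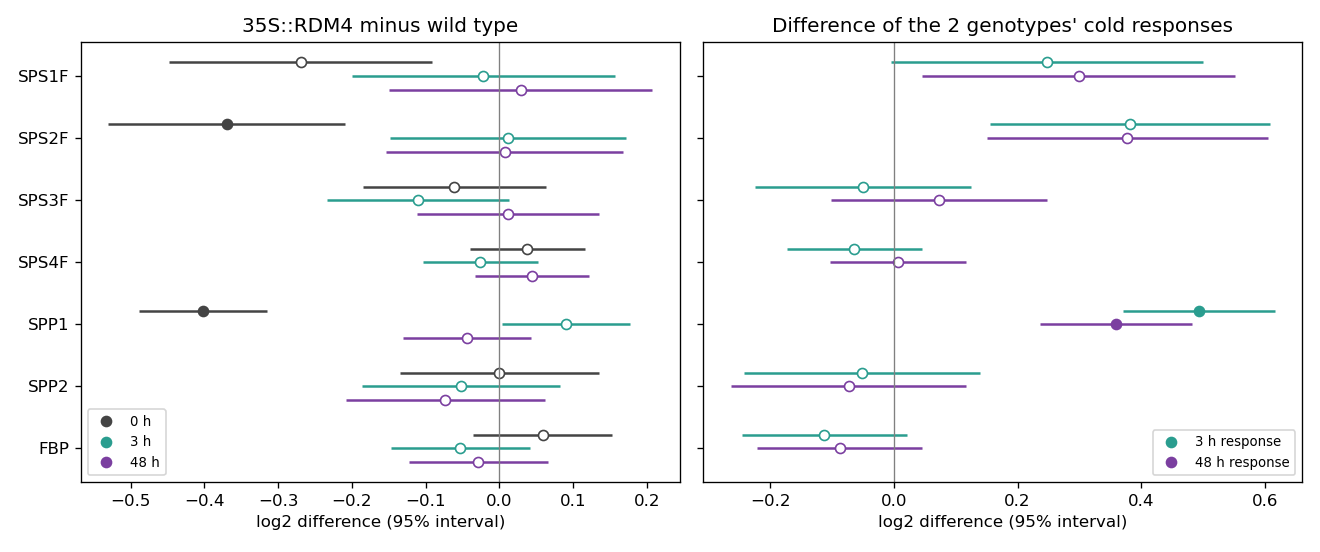
Left, log2 difference between 35S::RDM4 and wild type at 0 h, 3 h and 48 h; right, difference between the genotypes' responses at 3 h and 48 h; lines are 95% intervals and filled points passed. SPP1 and SPS2F lie below 0 at 0 h and near 0 in the cold, and SPP1 is the gene whose responses differ with adjusted p below 0.05.

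For both SPS2F and SPP2 a second, dimmer probe gave another reading. The dimmer SPS2F probe had a processed signal of 20.2 to 117 and was well above background on 10 of 12 arrays, the exceptions being both 35S::RDM4 arrays of 0 h. In a fit over the 33198 usable probes it rose by 1.43 at 3 h and 1.40 at 48 h in wild type (adjusted p 6.32e-06 and 4.06e-06). In 35S::RDM4, where the 0 h group is known only as a bound, it was at least 2.04-fold higher at 3 h and at least 2.73-fold higher at 48 h. The bound is the 0 h signal or the lowest signal well above background on that array, whichever is greater. Both probes thus rose. At 0 h the dimmer probe's genotype difference did not pass (adjusted p 0.41). Its means bound that difference only on one side, at 1.11-fold lower or more in 35S::RDM4. It thus cannot be set against the brighter probe's difference of -0.37. At 3 h, where both genotypes were measured, the dimmer probe gave -0.54 for 35S::RDM4 against wild type (adjusted p 0.0408) and the brighter probe gave 0.01. The dimmer probe's differences of responses were -0.40 at 3 h and 0.05 at 48 h (adjusted p 0.144 and 0.919). Both take in the 35S::RDM4 group of 0 h, so each is only a lower bound.

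The dimmer SPP2 probe, with a signal of 929 to 4324, rose by 0.84 at 3 h and 0.71 at 48 h in wild type (adjusted p 0.0031 and 0.00571), close to 0.80 and 0.76 from the brighter probe. In 35S::RDM4 it gave 1.07 and 0.63 (adjusted p 0.000836 and 0.0106), and -0.44 from 3 h to 48 h (adjusted p 0.0512). Its 2 replicates of 35S::RDM4 at 3 h stood apart, and its genotype difference at 3 h was 0.40 (adjusted p 0.204).

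**Figure D4:**
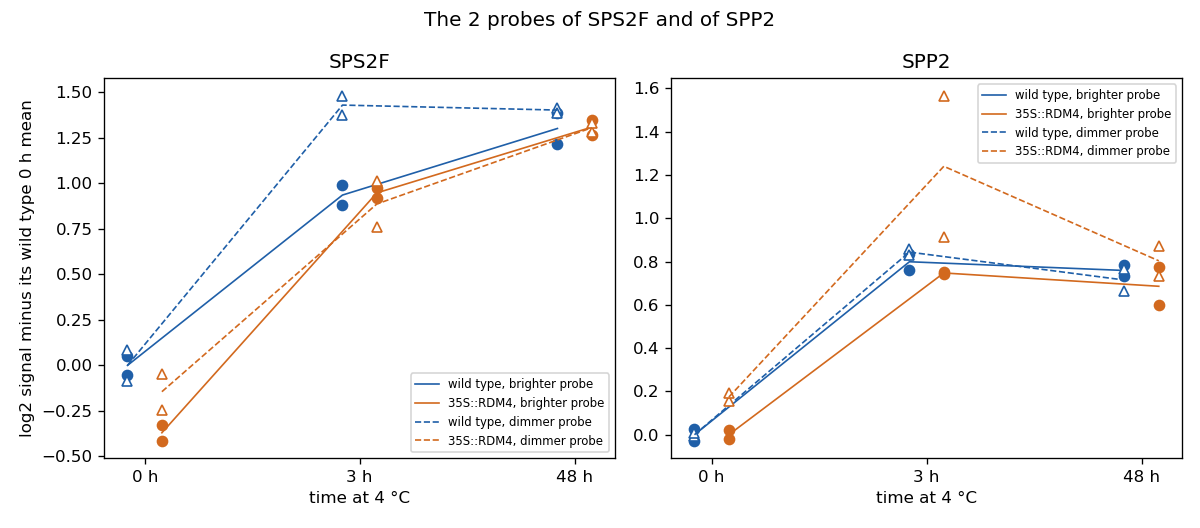
Log2 signal of each probe of SPS2F and SPP2 on every array, relative to that probe's wild-type mean at 0 h, against time at 4 °C; filled circles and solid lines are the brighter probe, open triangles and dashed lines the dimmer. All 4 probes are higher in the cold than at 0 h, and at 3 h the dimmer SPS2F probe separates the genotypes while the brighter does not. The 35S::RDM4 points of the dimmer SPS2F probe at 0 h are not well above background.

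Among themselves the 7 genes fell into several time courses. Over the 12 arrays, which share their 6 groups, Pearson's r was 0.965 between SPS2F and SPS3F and 0.904 between SPS1F and SPS2F. SPS4F, high at 3 h, had r of 0.897 with SPP2 and 0.148 with SPP1, and SPP1 had r of -0.987 with FBP. Among 9150 genes with a symbol, the most alike in pattern to SPS4F were CHIL (AT5G05270, r 0.9985) and DREB2B (AT3G11020, r 0.9983). In wild type CHIL changed by 2.88 at 3 h and 1.57 at 48 h, and DREB2B by 3.77 and 2.02. For SPP2 they were CDF3 (AT3G47500, r 0.9981) and NUDX19 (AT5G20070, r 0.9933), and for SPP1 CNGC10 (AT1G01340, r 0.9978) and NPY2 (AT2G14820, r 0.9972). For FBP they were TBL36 (AT3G54260, r 0.9976) and ASG1 (AT5G17640, r 0.9973). SPS2F was most like RLK902 (AT3G17840, r 0.9938) and PROPEP3 (AT5G64905, r 0.9932), and SPS3F most like EHB1 (AT1G70800) and SAP10 (AT4G25380), both with r of 0.9927. SPS1F had the weakest matches, FBX2 (AT5G21040, r 0.9702) and WRKY36 (AT1G69810, r 0.96).

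The steps that feed the pathway moved in both directions. Of 13 genes of precursor supply, 7 rose and 2 fell in wild type at 3 h, and 7 rose and 5 fell at 48 h, with medians of 0.18 and 0.16. The share that passed at 3 h is near the 68.1% of all genes, and the counts show nothing particular to this list. By direction, 30.8% of all genes rose and 37.2% fell at 3 h. At 48 h 39.7% rose and 39.1% fell, 78.7% in either direction. UGP2, a UDP-glucose pyrophosphorylase that makes the other substrate of the synthases, rose by 1.19 and 0.84. The aldolases FBA7 and FBA6, which form fructose 1,6-bisphosphate, changed by 0.66 and -0.999 at 3 h. FBA8, another aldolase, rose by 0.59 at 48 h. The triose phosphate translocator TPT fell by 0.96 on the log2 scale at 48 h. The aldolase FBA5 gave 0.77 at 3 h and -0.70 at 48 h by its brightest probe, but the mean of its 3 probes gave -1.04 and -2.44, so its probes disagree. In 35S::RDM4 the counts were the same, 7 and 2 and then 7 and 5, and 0 of the 13 passed between genotypes at any time.

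Of 4 homologues of the enzymes above, 2 rose and 1 fell at 3 h in wild type, and 1 rose and 1 fell at 48 h. Over all genes 30.8% rose and 37.2% fell at 3 h, 68.1% in either direction, and 39.7% and 39.1% did at 48 h, 78.7% in either direction. SPP3B, a further sucrose phosphatase, rose by 1.08 at 3 h and stood at -0.13 at 48 h (adjusted p 0.0418), a call kept in 16 of 25 alternatives and lost without any 1 of the 6 wild-type arrays. SPP3A changed by 0.21 and 0.65, though the mean of its 2 probes gave -0.37 and 0.08. CFBP2, a plastid bisphosphatase, changed by -0.14 at 3 h, and at 0 h it was higher in 35S::RDM4 by 0.20 (adjusted p 0.0286), a call lost without any 1 of the 0 h arrays.

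Sucrose breakdown was represented by 16 genes, of which 14 were tested, since CWINV2 and CWINV4 were not well above background in any group. In wild type 6 rose and 5 fell at 3 h, and 7 rose and 4 fell at 48 h, with medians of 0.10 and 0.29. Of all genes 30.8% rose and 37.2% fell at 3 h, 68.1% in either direction. At 48 h 39.7% rose and 39.1% fell, 78.7% in either direction, which is near the share of this list. The cell wall invertase CWINV5 rose by 1.78 and then 3.99. The sucrose synthases SUS1 and SUS2 rose by 2.18 and 1.74 at 48 h. SUS2 is dim, and its 48 h change was 1.01 with normexp correction. As the mean of its 2 probes it was 0.97 and did not pass. The cytosolic invertase CINV2 rose by 1.05 at 48 h, while CINV1 fell by 0.66 and SUS4 fell by 0.62 on the log2 scale at 3 h. SUS3 rose by 0.48 at 3 h. At 0 h 2 of the 14 were higher and 4 lower in 35S::RDM4, against 4.72% and 8.23% of all genes, 13% in either direction. The largest differences were CWINV5 at 0.66, CWINV6 at -0.47, CWINV1 at -0.33 and SUS4 at 0.28. All 4 calls were lost with slide as a fixed block, where CWINV6 stood at -0.30 and SUS4 at 0.16, and CWINV5 was 0.43 with normexp correction. The CWINV1 call was also lost without replicate 1 of wild type or replicate 2 of 35S::RDM4 at 0 h, and the SUS4 call without replicate 2 of wild type or either 35S::RDM4 array of 0 h.

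Of 12 genes of sucrose and sugar transport, 3 rose and 3 fell at 3 h in wild type, and 6 rose and 6 fell at 48 h, with medians of 0.03 and -0.05. The shares over all genes were 30.8% and 37.2% at 3 h, 68.1% in either direction, and 39.7% and 39.1% at 48 h, 78.7% in either direction. SWEET12, a sucrose exporter of the leaf vasculature, fell by 1.25 on the log2 scale at 3 h. The tonoplast carrier TST1 changed by -0.97 and the vacuolar glucose exporter ERDL6 by -0.72 at 3 h, and the vacuolar carrier SWEET17 by 0.69. At 48 h ERDL6 stood at -1.80, TST2 at 1.01 and SUC4, a tonoplast sucrose carrier, at 0.86. SUC5 was not well above background at 48 h in wild type and was at least 1.59-fold lower there than at 0 h (adjusted p 1.13e-05), a call lost with normexp correction and in the authors' deposited value table. Between genotypes 1 of the 12, SWEET11, was lower at 0 h, with -0.18 (adjusted p 0.0415), and 1, SUC1, was higher at 3 h, with 0.34. Of all genes 8.23% were lower at 0 h, 13% in either direction, and 2.23% were higher at 3 h, 4.93% in either direction. The SWEET11 call was kept in 9 of 25 alternatives and its sign turned with slide as a fixed block.

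**Figure D5:**
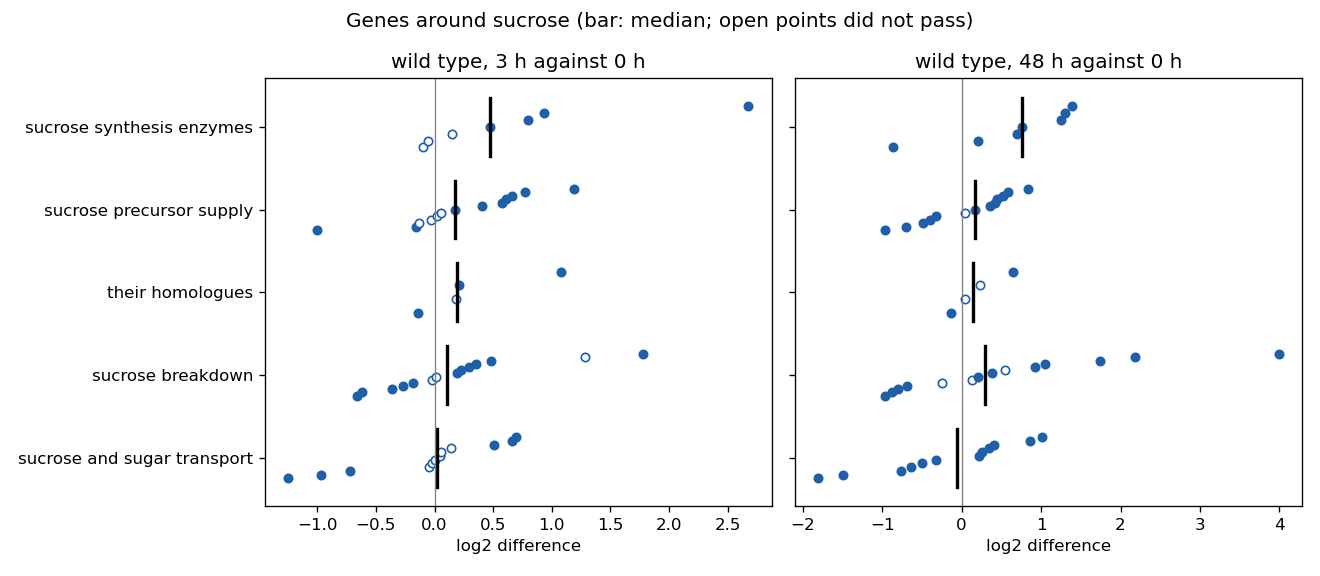
Log2 change in wild type at 3 h (left) and 48 h (right) for the 7 sucrose synthesis genes and for the genes of precursor supply, their homologues, sucrose breakdown and sugar transport; each point is a gene, filled where it passed, and the bar is the median. The sucrose synthesis genes have the highest median at both times, 0.47 and 0.76, and all 5 groups hold genes on both sides of 0.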

How the data were processed

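The deposited files are scanner outputs of 12 one-colour Cy3 arrays. Per the file headers, they were made with Agilent Feature Extraction 10.7.1.1, and the authors' processed signal is a Cy3 intensity, linear and corrected for background. The deposited value table equals the median signal intensity in 11 of 12 columns and served as an alternative. Array normalisation by the authors is not given in the sources used here.

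Of 45220 features, 1417 controls were left out. Of 43603 probes, 34285 matched a locus by transcript accession, and 108 were left out for outlier flags. Probes well above background on both arrays of at least 1 group were kept. A gene was represented by its brightest kept probe. Log2 signals minus each array's 75th percentile were fitted with 6 group means on all 12 arrays in limma 3.58.1 (R 4.3.3), with 6 residual and 2.08 prior degrees of freedom, and p-values were adjusted by Benjamini-Hochberg over 20806 genes for each of 12 comparisons. The code was tested on simulated data. Array number and signal over background limit the precision.

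The members and lists were chosen with earlier results of these data known. All 7 members are described, and up to 4 passing genes of each pathway list are named by size of change, with further ones named where a limit or a second time is given. For each member the 2 genes with a symbol and the highest Pearson correlation are named. The array's genome build differs from that of the reference table, so no coordinates are given, and no sequences were used here. The normexp alternative used the median signal, since the mean signal is not used here.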

Additional observations from a re-analysis of the deposited data

Results flagged for a closer look

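SPP1 is the gene for which the genotypes' cold responses differed in a test of the difference itself. The response at 3 h was larger in 35S::RDM4 by 0.49 on the log2 scale, and the response at 48 h by 0.36. The 0 h arrays enter both values, and SPP1 was lower in 35S::RDM4 on both of those arrays than on either wild-type array. Between the genotypes at 48 h it differed by -0.04. At 0 h and 3 h no slide carried both genotypes, so slide and genotype cannot be told apart at these times.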

How the results depend on the processing

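Across 25 alternatives, 12 of which left out 1 array each, 64 of 84 member results kept their call, and 26 of the 39 that passed did so under every alternative. None of these 39 changed sign. Of 35 cold calls 9 were lost in at least 1 alternative, and 3 results that had missed the threshold passed in at least 1. SPS3F lost 5 of its calls under normexp. The SPS1F change at 48 h in wild type ranged from 0.13 to 0.27 (adjusted p 0.0132 to 0.216), losing its call also without either wild-type array of 3 h (0.0528) or 48 h (0.0924 and 0.12) and without either 35S::RDM4 array of 0 h (0.054). From 3 h to 48 h in 35S::RDM4, SPP2 passed with its probes averaged (-0.25, adjusted p 0.0416). For the same step SPP2 stood at -0.15 without replicate 1 of 48 h, and SPS1F at 0.22 without replicate 2 of 48 h.

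At 0 h the 2 members lower in 35S::RDM4 became 1 under normexp or when fitted on the compared arrays alone and 0 with slide as a fixed block, and 1 to 3 when single arrays were left out. The number was 3 where SPS1F also passed, without either 35S::RDM4 array of 48 h (adjusted p 0.0243), with trended variance (0.0233) and with the all-array filter (0.0429). For the 3 h difference of responses, 1 member became 0 with slide as a fixed block and 2 with the all-array background filter, slide as a random block, scan day, trended variance or the replicate block. For the 48 h difference, 1 became 0 under normexp and slide as a fixed block and 2 with slide as a random block, scan day, trended variance or the replicate block, and 1 to 2 when single arrays were left out. There SPS1F passed without replicate 2 of 35S::RDM4 at 48 h (0.41, adjusted p 0.0499).

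Among passing genes of the pathway lists, signs turned at 3 h with probes averaged for FBA5 (-1.04), SPP3A (-0.37) and SUS2 (-0.86). Under normexp they turned at 3 h for SUS2 (-0.078) and SUC5 (-0.12). With slide as a fixed block the sign turned at 0 h for SWEET11 (0.010). Members that had not passed could turn too. The SPS1F genotype difference at 0 h reached 0.11, and the SPS2F difference of responses at 3 h reached -0.008. Same-numbered arrays had correlations of -0.0535 to 0.286 in their deviations from group means, and the labels give the number no shared origin. The 3 pairs of wild-type groups, where number and slide coincide, had 0.167, 0.186 and 0.286. With the replicate block the SPS2F differences of responses had adjusted p 0.00964 and 0.00739, and the FBP change at 3 h in wild type had 0.049.

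Over all genes, the 2696 genotype calls at 0 h ranged from 79 with slide as a fixed block to 3163, the 1025 at 3 h from 17 under normexp to 1732, and the 768 at 48 h from 160 to 913. The differences of responses ranged from 95 to 2062 around 1523 at 3 h, from 259 to 1285 around 1137 at 48 h and from 48 to 419 around 286 between them. The percentage of calls higher in 35S::RDM4 moved at 0 h from 36.5 to 48.0 with median scaling and 24.8 under normexp, at 3 h from 45.4 to 32.0 and at 48 h from 69.5 to 81.1. For the difference of responses at 3 h it moved from 64.7 to 42.6, 76.7 or 76.2, and at 48 h from 83.4 to 73.0. The cause was not tested.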
